A study of Mus musculus with 6 samples.

Results

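Heat shock chaperones help proteins reach and keep their folded state, and 9 of their genes were examined here together with Hsf1, the transcription factor gene that induces them under stress. The members were taken by gene symbol from a list that was proposed with earlier results of these data known: Hsp90aa1, Hsp90ab1, Hspa1a, Hspa1b, Hspa8, Hsph1, Hspb1, Hspd1, Hspe1 and Hsf1, which are 10 of the 24982 gene symbols in the count tables. All 10 were found and all 10 passed the filter on low counts. The cells were KMWT1, a mouse glioma cell line, sampled 48 hours after transfection with siRNA. RNA-seq read counts were available for 3 samples that received a pool of siRNAs against YY1 (samples 4, 5 and 6) and for 3 that received a control siRNA (samples 1, 2 and 3). YY1, a DNA-binding zinc finger protein, activates some genes and represses others, and the series asked how lowering it alters expression in these cells. The labels do not state whether the 3 samples of each group were separate cultures, and the p-values therefore cover a spread that may be only technical. The sources used here do not give the mutations of the line or say whether it is 1 clone.

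In unstressed cells HSF1 protein is held inactive, in part by the chaperones themselves. Unfolded protein draws the chaperones away, and freed HSF1 forms trimers that bind heat shock elements, repeats of the letters GAA and TTC that point towards or away from each other. Rapidly dividing tumour cells are known to lean on this system, and constitutive members such as Hsp90ab1 and Hspa8 are abundant in growing cells even without heat.

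Counts in genes ranged from 15738457 to 19210104 in YY1 siRNA samples and from 18680762 to 20644057 in control siRNA samples. By library size alone, 3 counts equal 0.145 to 0.191 CPM at these depths. The CPM values given for genes are counts scaled by library size with TMM factors. Samples of the same group differed by more than sampling noise in every pair (chi-square divided by its degrees of freedom 3.11 to 32.3). Of 8 glioma and glial progenitor markers, 6 stood at 10 CPM or more, among them Sox2 and Nes, while the glial factor gene Olig2 had 0 counts and Gfap had a mean of 0.0351 CPM. Of 18 markers of neurons, microglia, endothelium and oligodendrocytes, 15 stayed under 1 CPM, with Syn1 and Cdh5 among those above it. Yy1 stood at 81.2, 77.6 and 78.6 CPM in YY1 siRNA samples 4, 5 and 6, against 127, 128 and 126 CPM in control siRNA samples 1, 2 and 3. The groups did not overlap, and its level was 62.3% of control (95% interval 56.5% to 68.6%, edgeR adjusted p 0.00154). In bulk RNA, a drop in fewer cells and a smaller drop in every cell cannot be told apart.

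None of the 10 genes changed past the threshold when YY1 was lowered. With edgeR's quasi-likelihood test, 0 of 10 had an adjusted p under 0.05 and 0 of 10 an unadjusted p under 0.05, while DESeq2 and limma-voom also called 0. Over all 12148 genes tested, 0.00823% (1 gene, Yy1) passed at the adjusted threshold and 10.8% had an unadjusted p under 0.05, with 5.38% higher and 5.46% lower in YY1 siRNA samples. The groups overlapped for every one of the 10 genes, whereas they did not overlap for 16.3% of all genes tested. The log2 fold changes, YY1 siRNA over control siRNA, were above 0 for 3 genes and below 0 for 7, with a median of -0.032 against 0.001 over all genes. The precision differed between members. For 7 of the 10 the 95% interval lay inside a 1.3-fold change in either direction, which held for 62.8% of all genes. For 8 of the 10 it lay inside 1.5-fold (82.2% of all genes), and the exceptions were Hspa1a, which had few counts, and Hspe1, whose samples were far apart.

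**Figure D1:**
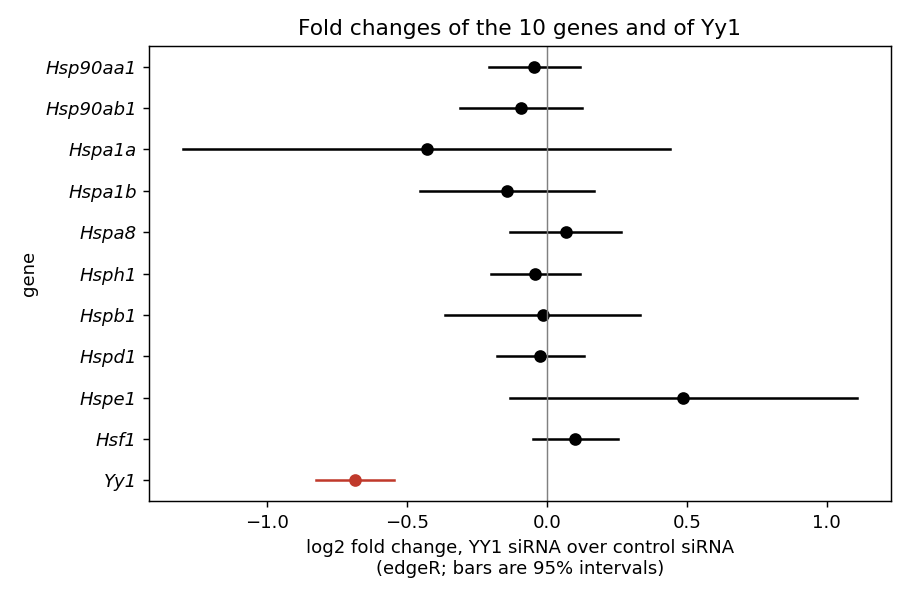
Log2 fold change, YY1 siRNA over control siRNA, of the 10 genes and of Yy1, with 95% intervals from edgeR (3 samples per group). All 10 intervals include 0, those of Hspa1a and Hspe1 are the widest of the 10, and that of Yy1 lies from -0.82 to -0.54.

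The members spanned a wide range of levels, and the constitutive Hsp90ab1 and Hspa8 stood far above Hspb1, Hspa1b and Hspa1a. Levels of different genes were compared as CPM per kilobase of the principal annotated transcript. Hsp90ab1, the constitutive cytosolic Hsp90, came first at a mean of 1256 CPM per kilobase over the 6 samples and ranked 42 of the 12058 tested genes with a length. Hspa8, the constitutive cytosolic Hsp70, followed at 518, then Hspe1 at 233, the inducible Hsp90 gene Hsp90aa1 at 150 and Hspd1 at 104 CPM per kilobase. Hsph1 stood at 33.3 and Hsf1 at 26.8 CPM per kilobase, and the small heat shock protein gene Hspb1 at 4.18. The stress-inducible Hsp70 genes Hspa1b and Hspa1a came last at 1.5 and 0.207 CPM per kilobase, and Hspa1a ranked 11851. How reads that fit both of these genes were counted is not known, so their levels are uncertain. Each gene lay above the next in all 6 samples, with 1 exception: Hspe1 and Hsp90aa1 overlapped, since Hspe1 stood at 151 and Hsp90aa1 at 156 CPM per kilobase in control siRNA sample 1. Together the 10 genes took 0.522% to 0.575% of the counts in genes in YY1 siRNA samples and 0.559% to 0.564% in control siRNA samples.

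**Figure D2:**
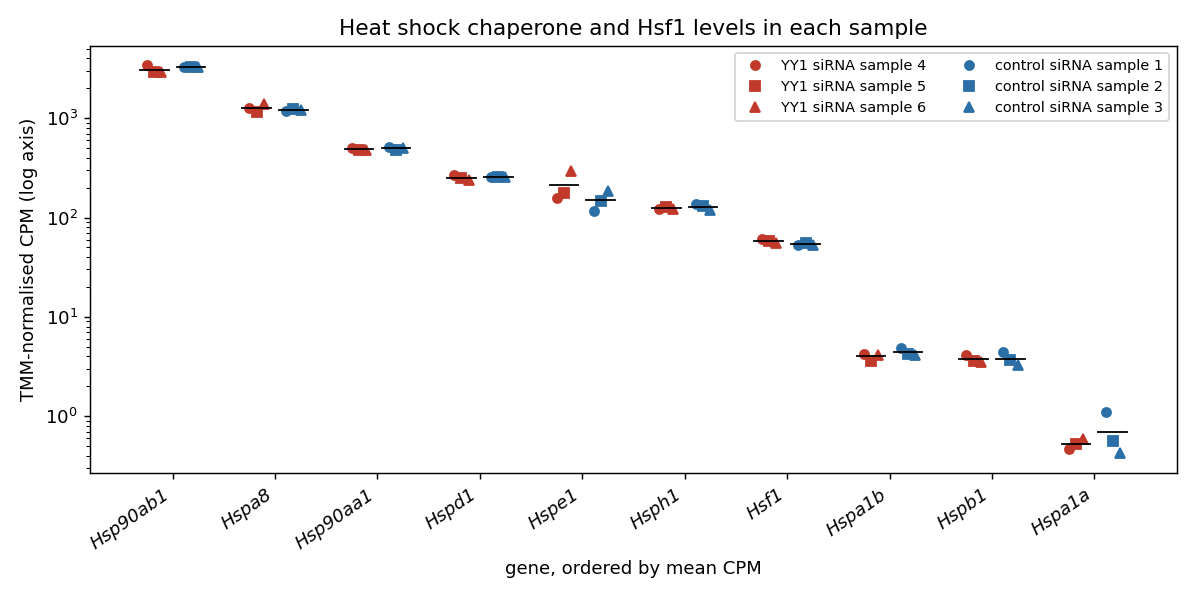
TMM-normalised CPM (log axis) of each gene in each sample, with YY1 siRNA samples in red left of control siRNA samples in blue and a line at each group's mean (n = 3). The groups overlap for every gene, and only Hspe1 and Hspa1a spread more than 2.5-fold between the highest and the lowest sample.

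Hsp90 is a dimeric ATPase that completes the folding of kinases, steroid receptors and other clients, and the cytosol holds an inducible and a constitutive form. Hsp90aa1, the inducible form (chromosome 12, 110690605 to 110702728, minus strand, mm10), had 498, 477 and 476 CPM in YY1 siRNA samples 4, 5 and 6, against 513, 482 and 502 CPM in control siRNA samples 1, 2 and 3. The samples lay within 1.08-fold of each other, and the fold change on the log2 scale was -0.045 (SE 0.075, edgeR adjusted p 0.837). Hsp90ab1, the constitutive form (chromosome 17, 45567775 to 45573271, minus strand), had 3397, 2910 and 2887 CPM in YY1 siRNA samples 4, 5 and 6, against 3298, 3254 and 3239 CPM in control siRNA samples 1, 2 and 3. Sample 4 lay above all control siRNA samples and samples 5 and 6 below all of them, so the YY1 siRNA samples varied by 9.40% (coefficient of variation) and the control siRNA samples by 0.933%. The log2 fold change of Hsp90ab1 was -0.091 (SE 0.1, edgeR adjusted p 0.742), and it was -0.16 without sample 4 (adjusted p 0.296). The count ratio of the inducible to the constitutive form stood at 0.147, 0.164 and 0.165 in YY1 siRNA samples 4, 5 and 6, against 0.155, 0.148 and 0.155 in control siRNA samples 1, 2 and 3, so the ratios overlapped between groups.

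Hsp70 proteins bind short hydrophobic stretches of unfolded chains in an ATP-driven cycle. Hspa8, the constitutive Hsc70 (chromosome 9, 40800984 to 40810087, plus strand), had 1278, 1160 and 1372 CPM in YY1 siRNA samples 4, 5 and 6, against 1182, 1244 and 1208 CPM in control siRNA samples 1, 2 and 3. Sample 6 was the highest and sample 5 the lowest of all 6, with the control siRNA samples between them (log2 fold change 0.068, SE 0.091, edgeR adjusted p 0.791). Its locus holds 3 small nucleolar RNA genes of the Snord14 family on the same strand, so reads of these could not be told apart from its introns by strand. Hsph1, an Hsp110 protein that speeds nucleotide exchange on Hsp70 (chromosome 5, 149614287 to 149636376, minus strand), had 123, 129 and 122 CPM in YY1 siRNA samples 4, 5 and 6, against 136, 130 and 118 CPM in control siRNA samples 1, 2 and 3. All YY1 siRNA samples lay within the range of the control siRNA samples (log2 fold change -0.041, SE 0.0732, edgeR adjusted p 0.850).

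The stress-inducible Hsp70 is encoded by 2 neighbouring single-exon genes on the minus strand of chromosome 17, Hspa1b (34956436 to 34959238) and Hspa1a (34969190 to 34972156). Of the 50-base windows of the Hspa1a transcript, 58.8% also occur in that of Hspa1b, and Gm20481 is annotated over Hspa1a on the other strand. The sources used here do not say how reads that fit both copies were counted, so the split between them and their levels are uncertain. Their RefSeq promoters (GRCm38.p6) are shown because they are almost the same too. In the 300-base window from 250 bases before to 50 after the start they differed at 4 positions (98.7% identity), which are T44C, C47T, G249T and T276C with the Hspa1b base first, counted from 1 at the 5′ end. The 250 bases before the start are printed 5′ to 3′, chr17:34959239-34959488 for Hspa1b and chr17:34972157-34972406 for Hspa1a, both minus strand. Capitals mark GAANNTTC, a pair of heat shock repeats that point towards each other.
Hspa1b: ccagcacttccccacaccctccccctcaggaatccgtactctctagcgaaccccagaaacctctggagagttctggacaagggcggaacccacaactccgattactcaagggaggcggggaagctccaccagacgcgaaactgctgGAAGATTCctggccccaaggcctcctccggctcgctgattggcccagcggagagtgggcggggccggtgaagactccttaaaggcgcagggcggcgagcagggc
Hspa1a: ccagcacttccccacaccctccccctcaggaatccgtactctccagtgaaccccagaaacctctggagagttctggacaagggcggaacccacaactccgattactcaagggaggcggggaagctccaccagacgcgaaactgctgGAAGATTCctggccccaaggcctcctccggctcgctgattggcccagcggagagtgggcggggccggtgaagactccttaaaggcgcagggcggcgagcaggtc
Hspa1b had 4.25, 3.61 and 4.18 CPM in YY1 siRNA samples 4, 5 and 6, against 4.86, 4.2 and 4.18 CPM in control siRNA samples 1, 2 and 3 (log2 fold change -0.142, SE 0.144, edgeR adjusted p 0.719). Hspa1a rested on 9, 10 and 9 counts in YY1 siRNA samples 4, 5 and 6, against 23, 11 and 8 counts in control siRNA samples 1, 2 and 3. Control siRNA sample 1 alone stood above 11 counts. The log2 fold change of Hspa1a was -0.428 (SE 0.401, edgeR adjusted p 0.692), and without control siRNA sample 1 it was 0.08 (adjusted p 0.992). With the copies summed before the fit, the log2 fold change was -0.178 (95% interval -0.497 to 0.141, adjusted p 0.649). Hspa1a took 10%, 12.8% and 12.3% of the summed counts in YY1 siRNA samples 4, 5 and 6, against 18.5%, 12% and 9.2% in control siRNA samples 1, 2 and 3. The exact binomial 95% intervals of these shares, which cover counting error only, all include the pooled share of 12.9% (10.2% to 16%).

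Hspb1 encodes a small heat shock protein that holds unfolded proteins in large oligomers without using ATP (chromosome 5, 135887919 to 135889563, plus strand). It was among the low members, with 4.14, 3.61 and 3.53 CPM in YY1 siRNA samples 4, 5 and 6, against 4.43, 3.69 and 3.28 CPM in control siRNA samples 1, 2 and 3. These values rested on 54 to 79 counts in YY1 siRNA samples and 62 to 92 in control siRNA samples. All YY1 siRNA samples lay within the range of the control siRNA samples (log2 fold change -0.014, SE 0.160, edgeR adjusted p 0.980), and at this depth the 95% interval reached from 0.778-fold to 1.26-fold.

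Hspd1 and Hspe1 encode the mitochondrial Hsp60 chamber and its Hsp10 lid, which fold imported proteins together. The genes lie head to head on chromosome 1, with Hspd1 on the minus strand (55077835 to 55088243) and Hspe1 on the plus strand (55088132 to 55091307), so their annotated ends overlap and strandless counting could not separate reads there. Among the RefSeq starts, that of Hspd1 at 55087932 lies 216 bases from the Hspe1 start. The upstream Hspd1 start (55088243) lies 95 bases inside Hspe1. The 250 bases before the Hspe1 start, chr1:55087898-55088147 (GRCm38.p6, plus strand), are shown because they hold that stretch of 216 bases. Capitals mark TTCNNGAA and GAANNTTC, which overlap there as 3 matches in 1 run.
Hspe1: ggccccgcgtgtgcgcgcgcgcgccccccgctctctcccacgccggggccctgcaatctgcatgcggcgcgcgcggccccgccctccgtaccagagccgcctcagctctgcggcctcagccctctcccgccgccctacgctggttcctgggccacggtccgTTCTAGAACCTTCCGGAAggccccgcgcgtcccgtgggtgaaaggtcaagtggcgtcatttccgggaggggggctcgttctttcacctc
The first match begins 89 bases before the Hspe1 start. The same run read from the other strand begins 144 bases before the Hspd1 start at 55087932. The YY1 core motif AANATGG was not found on either strand of the 300-base windows of Hspe1 or Hspd1.

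The values of the pair moved apart between samples. Hspd1 had 268, 247 and 237 CPM in YY1 siRNA samples 4, 5 and 6, against 254, 254 and 256 CPM in control siRNA samples 1, 2 and 3 (log2 fold change -0.023, SE 0.0718, edgeR adjusted p 0.919). Hspe1 had 158, 177 and 297 CPM in YY1 siRNA samples 4, 5 and 6, against 117, 148 and 187 CPM in control siRNA samples 1, 2 and 3. Sample 6 was the highest for Hspe1 and the lowest for Hspd1, while YY1 siRNA samples 4 and 5 lay within the control range of Hspe1. The log2 fold change of Hspe1 was the largest of the 10 at 0.488 (SE 0.264, 95% interval -0.131 to 1.108), with an edgeR unadjusted p of 0.105 and an adjusted p of 0.521. Leaving out YY1 siRNA sample 6 gave 0.15 (adjusted p 0.908), and leaving out control siRNA sample 3 gave 0.67 (adjusted p 0.423). The Hspe1 to Hspd1 count ratio stood at 0.591, 0.718 and 1.25 in YY1 siRNA samples 4, 5 and 6, against 0.458, 0.583 and 0.728 in control siRNA samples 1, 2 and 3. Within the groups, Hspe1 had a standard deviation of 0.418 on the log2 scale, against a median of 0.115 over all genes and 0.064 for Hspd1, and 344 of the 12148 genes spread more.

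Transcript length differs between the pair, at 774 bases for Hspe1 and 2423 for Hspd1, and short transcripts as a class stood high in the same sample. Relative to each gene's mean over the 6 samples, the median log2 level of the 757 tested genes with a transcript of 1 kb or less was -0.031, -0.056 and 0.291 in YY1 siRNA samples 4, 5 and 6, against -0.130, -0.097 and 0.032 in control siRNA samples 1, 2 and 3. Hspe1 itself stood at -0.13, 0.04 and 0.78 in YY1 siRNA samples 4, 5 and 6, against -0.57, -0.23 and 0.11 in control siRNA samples 1, 2 and 3. Sample 6 was thus the highest and control siRNA sample 1 the lowest for Hspe1 and for the class, and 16 of the 757 genes deviated more than Hspe1 in sample 6. Hspb1, at 903 bases, did not follow the class and stood at -0.09 in sample 6. Sample 6 had the fewest counts, and 5 of the 6 tables carry the mark combined, that of sample 6 being the exception. With an offset for transcript length fitted in each sample, chosen after the data were seen, the log2 fold change of Hspe1 was 0.336 (SE 0.150, edgeR unadjusted p 0.0447, adjusted p 0.366). The part of transcript length in the Hspe1 values was not tested beyond this offset.

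**Figure D3:**
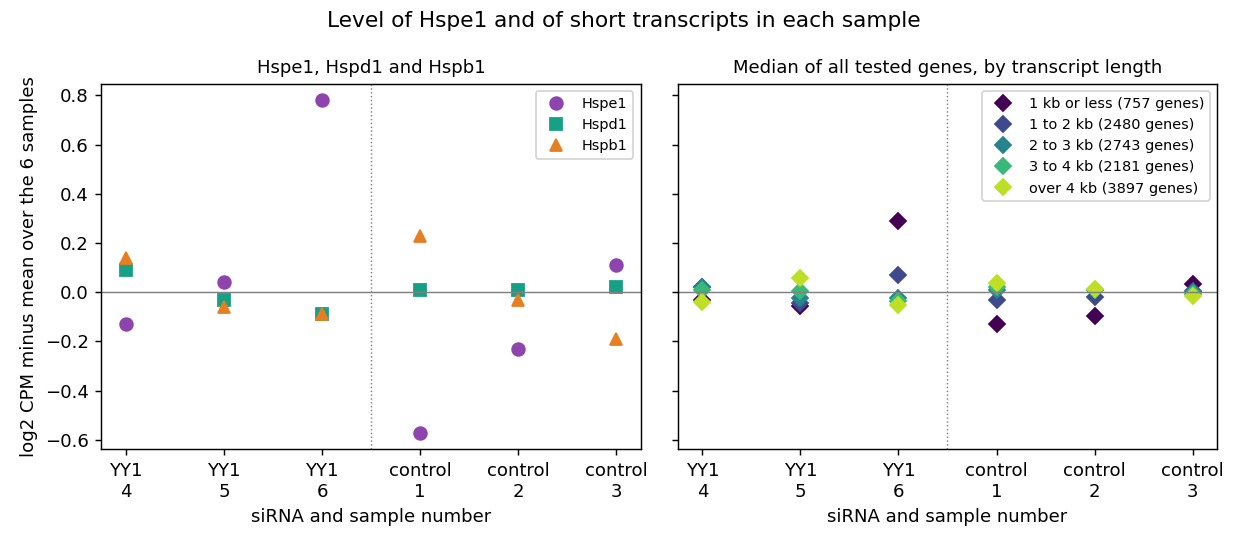
Log2 CPM minus the mean over the 6 samples, for Hspe1, Hspd1 and Hspb1 (left) and as the median of all tested genes in 5 classes of transcript length (right), with YY1 siRNA samples left of control siRNA samples. Hspe1 reaches 0.78 in YY1 siRNA sample 6, where the class of 1 kb or less has its highest median, 0.291, while Hspd1 stays between -0.09 and 0.09.

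Hsf1, the regulator, was expressed at an intermediate level (chromosome 15, 76477422 to 76501913, plus strand). It had 60.4, 57.7 and 55.0 CPM in YY1 siRNA samples 4, 5 and 6, against 52.5, 56.0 and 52.9 CPM in control siRNA samples 1, 2 and 3. Samples 4 and 5 lay above all control siRNA samples and sample 6 below control siRNA sample 2. On the log2 scale it was 0.102 higher (SE 0.070, 95% interval -0.049 to 0.254), with an edgeR adjusted p of 0.581. HSF1 is regulated mainly as a protein, and its activity was not measured by these counts.

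Among the promoters, 6 of the 10 genes had a RefSeq entry (8 windows of 300 bases), and heat shock letters were found in 7 of the 8 windows, in at least 1 window of each of the 6 genes. The window of the upstream Hspd1 start (55088243) held none. Hsp90aa1, Hsp90ab1, Hspa8 and Hsf1 are named without a sequence. Both strands were searched for GAANNTTC and TTCNNGAA, each of which reads the same on the other strand. Of 32851 promoter windows of all genes, 15.1% held at least 1 of them. The 7 windows with a match are not independent. Those of Hsph1 overlap and hold the same matches, and those of Hspe1 and the downstream Hspd1 start share 1 run. The windows of Hspa1a and Hspa1b are almost the same. Counts out of these 8 windows therefore cannot be compared with shares of all windows. The 250 bases before the starts of Hsph1 (chr5:149636337-149636586, minus strand, upstream start) and Hspb1 (chr5:135887669-135887918, plus strand) are shown because they carry the remaining matches that lie before a start. Capitals mark the heat shock letters and, in Hspb1, the first capital run is the YY1 core motif AANATGG.
Hsph1: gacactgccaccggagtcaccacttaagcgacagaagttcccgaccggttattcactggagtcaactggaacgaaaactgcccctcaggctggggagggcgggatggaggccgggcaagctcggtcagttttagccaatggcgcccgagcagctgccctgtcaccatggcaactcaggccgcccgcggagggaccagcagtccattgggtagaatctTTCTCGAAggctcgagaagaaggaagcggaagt
Hspb1: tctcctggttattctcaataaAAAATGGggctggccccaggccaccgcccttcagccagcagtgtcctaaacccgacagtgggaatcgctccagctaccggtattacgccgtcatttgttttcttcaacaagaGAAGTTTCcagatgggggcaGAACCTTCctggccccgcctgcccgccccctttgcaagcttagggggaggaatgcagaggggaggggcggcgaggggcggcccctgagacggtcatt
Hspb1 held GAANNTTC at 117 and 97 bases before its start. Hsph1 held TTCNNGAA 33 bases before its start and an overlapping pair of matches after it. The YY1 core motif, present in 16.1% of all windows, was found in 1 of the 8 windows, that of Hspb1. A match is a description of the letters and not a binding site.

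In the wider chaperone network, too, no gene passed the threshold. Across 9 lists of helpers, relatives and further HSF1 targets with the members left out, 96 of 105 genes were tested and 0 passed with edgeR or DESeq2, while 7 were higher and 4 lower at an unadjusted p under 0.05. That is 11.5% of the 96, beside 10.8% of all genes tested. Among these 11, all named below, the groups overlapped only for Cdc37l1 and Hsbp1. Small p-values favour groups that stand apart, so this follows largely from the choice by p. Groups did not overlap for 16.3% of all genes tested. The median log2 fold change of the 96 was 0.011. Of 15 tested further heat-inducible HSF1 targets, 0 had an unadjusted p under 0.05, and their median was 0.010. Among these, Hspb8, a small heat shock protein gene, stood at 81.5 ± 1.14 CPM in YY1 siRNA samples and 89.7 ± 2.82 CPM in control siRNA samples (SD, n = 3 each, edgeR adjusted p 0.468). The gene for the calcyclin-binding protein Cacybp stood at 96.6 ± 15.2 CPM in YY1 siRNA samples and 84.4 ± 5.4 CPM in control siRNA samples (adjusted p 0.505).

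Helpers of Hsp90 and Hsp70 gave small values in both directions. Of 18 Hsp90 co-chaperone genes, 1 was higher and 1 lower at an unadjusted p under 0.05. Their median was 0.030. Fkbp5, an immunophilin that acts on steroid receptors, stood at 39.6 ± 5.94 CPM in YY1 siRNA samples and 46.8 ± 1.75 CPM in control siRNA samples (edgeR adjusted p 0.427), and Cdc37l1, a relative of the kinase co-chaperone Cdc37, at 43.4 ± 7.52 CPM in YY1 siRNA samples and 36.5 ± 0.408 CPM in control siRNA samples (adjusted p 0.454). Of 11 nucleotide exchange and regulatory factors of Hsp70, 1 was higher and 1 lower, with a median of -0.062. Bag2 stood at 62.1 ± 3.32 CPM in YY1 siRNA samples and 54.9 ± 0.360 CPM in control siRNA samples (adjusted p 0.401), Bag6 at 222 ± 23.2 CPM in YY1 siRNA samples and 255 ± 6.15 CPM in control siRNA samples (adjusted p 0.420), and Bag5 at 31.8 ± 2.75 CPM in YY1 siRNA samples and 35.2 ± 1.44 CPM in control siRNA samples (adjusted p 0.522). Of 17 listed J-domain genes, whose proteins deliver clients to Hsp70, 1 was higher and 0 lower at that p, with a median of -0.013. This was Dnajc9, a histone co-chaperone gene, at 10.3 ± 1.35 CPM in YY1 siRNA samples and 7.72 ± 0.920 CPM in control siRNA samples (adjusted p 0.296). Dnajb4 stood at 167 ± 15.4 CPM in YY1 siRNA samples and 186 ± 7.87 CPM in control siRNA samples (adjusted p 0.473), and Dnajb6 at 60.9 ± 2.85 CPM in YY1 siRNA samples and 55.1 ± 3.49 CPM in control siRNA samples (adjusted p 0.494).

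The mitochondrial and chaperonin families gave no call either. Of 17 other mitochondrial chaperone and protease genes, 0 were higher and 2 lower at an unadjusted p under 0.05. Their median was 0.009. The lower ones were Afg3l1, a subunit of an inner membrane protease, at 33.5 ± 3.24 CPM in YY1 siRNA samples and 41.1 ± 1.91 CPM in control siRNA samples (edgeR adjusted p 0.265), and Clpb, a disaggregase gene, at 39.0 ± 2.78 CPM in YY1 siRNA samples and 46.2 ± 1.85 CPM in control siRNA samples (adjusted p 0.306). Trap1, the mitochondrial Hsp90, stood at 83.5 ± 3.52 CPM in YY1 siRNA samples and 90.9 ± 1.12 CPM in control siRNA samples (adjusted p 0.508), and Hspa9, the mitochondrial Hsp70, at 935 ± 98.7 CPM in YY1 siRNA samples and 1050 ± 29.7 CPM in control siRNA samples (adjusted p 0.516). Of 14 subunits of prefoldin and of the cytosolic chaperonin TRiC, 2 were higher and 0 lower, with a median of 0.036. Both are prefoldin genes: Pfdn1 (1109 bases) at 167, 164 and 221 CPM in YY1 siRNA samples 4, 5 and 6, against 129, 129 and 151 CPM in control siRNA samples 1, 2 and 3, and Pfdn4 (935 bases) at 41.0, 40.9 and 55.8 CPM in YY1 siRNA samples 4, 5 and 6, against 35.2, 36.6 and 39.2 CPM in control siRNA samples 1, 2 and 3 (adjusted p 0.263 and 0.394). For both, sample 6 was the highest, and samples 4 and 5 also lay above all control siRNA samples. The TRiC subunit gene Cct4 also had its highest value in sample 6, 662 CPM. Of the 106 chaperone genes tested, members included, 8 had a transcript of 1 kb or less, and their median log2 level was 0.420 in sample 6, where 6 of the 8 had their highest value. The other 98 had a median of -0.014 in sample 6, and 29 of them had their highest value there. All 757 tested genes with a transcript of 1 kb or less had a median of 0.291 in sample 6. The share of all genes with their highest value in sample 6 is not given, so these counts describe no trait of chaperone genes.

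Among 6 other heat shock factor genes and regulators, 2 were higher and 0 lower at an unadjusted p under 0.05. Their median was 0.182. Hsbp1, which encodes a binding protein of HSF1, stood at 111, 110 and 142 CPM in YY1 siRNA samples 4, 5 and 6, against 94.7, 99.3 and 113 CPM in control siRNA samples 1, 2 and 3 (edgeR adjusted p 0.434). The groups overlapped, and sample 6 was again the highest. Hsf4, a heat shock factor gene known from the lens, stood at 1.48 ± 0.255 CPM in YY1 siRNA samples and 1.02 ± 0.161 CPM in control siRNA samples (adjusted p 0.459), and Hsf2bp at 0.693 ± 0.0463 CPM in YY1 siRNA samples and 0.419 ± 0.139 CPM in control siRNA samples (adjusted p 0.483). Both rested on few counts, 16 to 33 per sample for Hsf4 and 6 to 14 per sample for Hsf2bp. Of 8 other Hsp70 and Hsp110 genes, and of 4 other genes listed by symbol under small heat shock proteins, 0 had an unadjusted p under 0.05. Their medians were -0.079 and -0.098. In these lists Hspa13 stood at 71.9 ± 7.52 CPM in YY1 siRNA samples and 63.9 ± 3.92 CPM in control siRNA samples, and Hspa12b at 28.6 ± 1.12 CPM in YY1 siRNA samples and 31.2 ± 0.744 CPM in control siRNA samples (edgeR adjusted p 0.485 and 0.536). Hspb11 stood at 28.8 ± 6.78 CPM in YY1 siRNA samples and 24.7 ± 1.34 CPM in control siRNA samples, and Cryab, a lens and glial small heat shock protein gene, at 118 ± 9.32 CPM in YY1 siRNA samples and 131 ± 21.7 CPM in control siRNA samples (edgeR adjusted p 0.576 and 0.608).

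**Figure D4:**
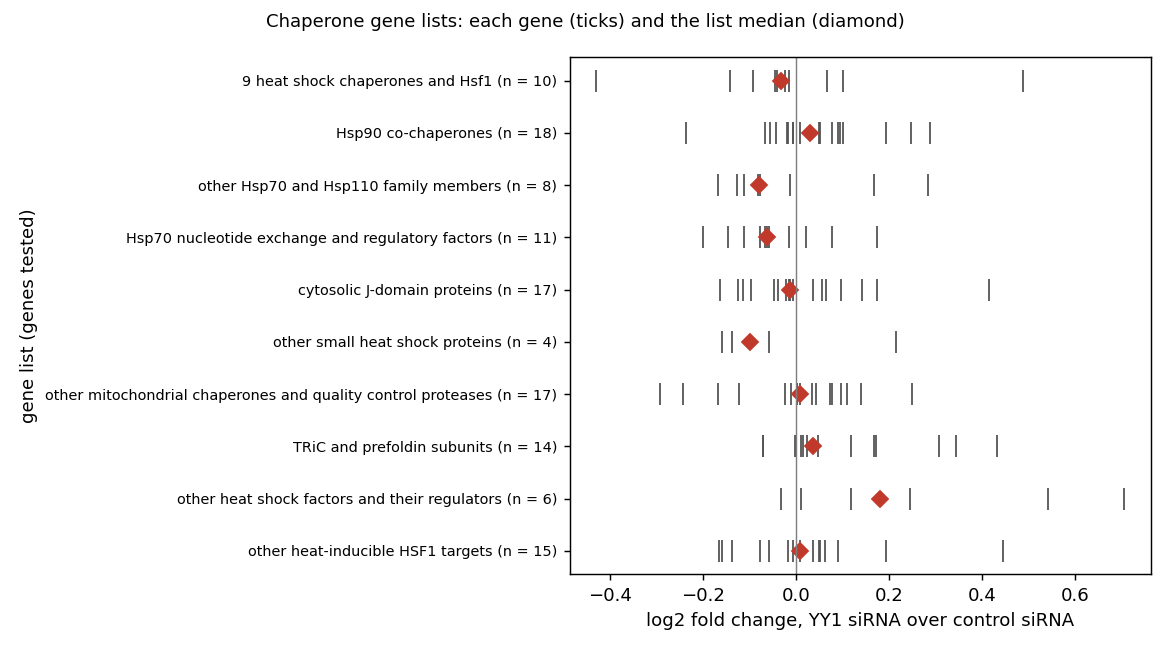
Log2 fold change, YY1 siRNA over control siRNA, of each tested gene (ticks) in the 9 chaperones with Hsf1 and in 9 further lists, with the list median as a diamond. The medians lie between -0.098 and 0.182, and no gene shown passed the edgeR test.

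The genes whose profile over the 6 samples was most like that of a member were found by the root mean square difference of centred log2 CPM, over 8883 genes with a mean of at least 10 CPM. For Hsph1 these were Tmem135 (difference 0.0171), Ubr3 (0.0203) and Zfp574 (0.0215), against a median of 0.107 over the genes compared. For Hspd1 they were Gnb1 (0.0114), S100a11 (0.0131) and Vasn (0.0131), against a median of 0.101. These 6 were picked for the smallest differences, so values far under the median follow from the choice and show no shared regulation. None of these 6 is a chaperone gene in the lists above. Gnb1 stood at 720, 659 and 638 CPM in YY1 siRNA samples 4, 5 and 6, against 679, 686 and 676 CPM in control siRNA samples 1, 2 and 3. Sample 4 was the highest and sample 6 the lowest, as for Hspd1, which the choice by likeness makes likely.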

How the data were processed

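Read counts per gene symbol, 1 table per sample, were used as the authors deposited them, in whole numbers that show no normalization. The submitters' processing notes name STAR 2.6.1a, edgeR 3.30.0 and mm10. How reads were counted, with which annotation and strand setting, is not given in the labels. Counts outside genes (7.87% to 11.3%) and ambiguous ones (1.01% to 1.15%) were left out. The test was edgeR 4.0.16 (R 4.3.3), quasi-likelihood, two-sided, on all genes, with filterByExpr (minimum count 10), TMM and robust dispersion, and Benjamini-Hochberg adjustment over the 12148 genes tested (threshold 0.05). CPM are TMM-normalised. Alternatives were DESeq2 1.42.0, limma-voom (limma 3.58.1), other scalings and filters, summed Hspa1 copies, a length offset and leaving out each sample. Centred levels use log2 CPM with a prior count of 2. Gene models came from GENCODE M21 (mm10), where 99.3% of tested genes had a length, and promoters from RefSeq. The fit was checked on simulated counts. Genes named are the members, Yy1, the 3 smallest p-values of each list, and the 3 nearest profiles to Hsph1 and Hspd1. 1 gene that this rule names is not reported here. The members and lists were both chosen with earlier results of these data known.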

Additional observations from a re-analysis of the deposited data

Results flagged for a closer look

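Counts that fell in no gene entered no comparison. They made up 10.7% of YY1 siRNA sample 5 and 11.3% of sample 6, above the 7.99%, 8.64% and 9.03% of control siRNA samples 1, 2 and 3, while YY1 siRNA sample 4 had 7.87%. Hsp90ab1 was lowest in samples 5 and 6 as well, and the part of this share in its values was not tested.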

How the results depend on the processing

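No member and no other chaperone gene that was tested passed under any of the 9 other settings or without any sample. Hspa1a was not tested on its own with at least 1 CPM in 3 samples or with the copies summed. The number of all genes changed, 1 in the main test, was 7 with library size alone, 83 without a filter on low counts, 19 with DESeq2, 4 with the transcript length offset, and 1 to 41 without each sample (41 without YY1 siRNA sample 4). The cause was not tested. The members' median log2 fold change was -0.069 to 0.028 without each sample, and 0.028 without control siRNA sample 1. Without each sample, the log2 fold change of Hspa1a ran from -0.68 to 0.08, of Hsph1 from -0.10 to 0.01, of Hspb1 from -0.11 to 0.11 and of Hspd1 from -0.07 to 0.01, and these changed sign. Yy1 passed under all settings (log2 fold change -0.71 to -0.66, and -0.70 to -0.67 without each sample). The Hspa1a share was 11.2% to 13.6% without each sample. The length offset and the count of other chaperone genes under each setting were added after the data were seen. No paired analysis was possible because the groups share no replicate numbers. At 8 to 23 counts, the 95% interval of Hspa1a reached from 0.406-fold to 1.36-fold.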
